A study of Mus musculus with 4 samples.

Results

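Interferon-stimulated and nucleic acid sensing genes were examined in cells of the regenerated mouse olfactory epithelium with and without lamin B1, a structural protein of the nuclear lamina encoded by Lmnb1. The genes were chosen by name. Of the 35 listed, 34 were found among the 23337 gene symbols of the files, and 33 were expressed highly enough to be tested, that is, at over 1 CPM (counts scaled to library size) in at least 2 of the 4 libraries. The list was drawn up with the genotype result of these same libraries known, so the numbers of its members called in that comparison, and the direction of their medians, describe the list and are not independent support for it.

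Tomato-positive cells were sorted for RNA-seq from 4 adult mice of mixed background, 1 mouse per library, after 4 weeks of recovery from methimazole. Per the paper's methods this drug was given as 2 injections of 50 mg/kg each. It destroys the epithelium and makes it regrow from its stem cells. Mutant cells were Lmnb1-/- and control cells Lmnb1+/-, so the controls also carried a deleted copy. In every mouse a Cre recombinase under the keratin 5 promoter (K5Cre) acted on a floxed Lmnb1 allele and on the R26 Ai9 reporter, which expresses the red protein Tomato in horizontal basal cells and in all cells that descend from them. The sorted cells were therefore a mixture of neurons, supporting cells and progenitors taken from a mosaic epithelium. Control 1 and mutant 1 belonged to experimental group 1, and control 2 and mutant 2 to experimental group 2. Within a group the mice shared parents, age, sex, treatment and library work. Per the submitters' design description the groups differed in treatment, parents, age and sex, which cannot be told apart. The labelled dose and recovery time were the same in both groups, so how treatment differed is not known.

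Values are given below with experimental group 1 before group 2. Lmnb1 itself was measured at 20.6 and 18.8 CPM in the controls and 14.1 and 10.1 in the mutants (log2 fold change -0.72, SE 0.31, adjusted p = 0.195), with counts taken over the whole gene and not over the deleted exon alone. Gene counts summed to between 14833396 in mutant 2 and 23704638 in control 1, at which 3 counts correspond to 0.13 to 0.203 CPM. Mutant 1 stood apart, with 39.41% of uniquely aligned reads outside genes against 22.08% to 24.88% in the others, and with 1603 genes at 0 counts against 5173 to 6053. All 16 markers of the olfactory epithelium that were listed were detected in every library. Of these, 3 were called lower in mutants, the mature neuron genes Omp, Cnga2 and Adcy3 (DESeq2 did not call Omp), and 11 had a positive value, none of them called. DESeq2 called 6 of the 16 higher, the basal cell genes Krt5, Krt14 and Trp63, the progenitor and supporting cell gene Sox2, the supporting cell gene Cyp2g1 and the epithelial gene Cdh1. Their log2 fold changes in edgeR lay between 0.38 for Cyp2g1 and 0.53 for Trp63, and their ratios of mutant to control were positive in both experimental groups, as were those of most of the genes described here. The part of these shifts between cell types in the results was not tested.

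Interferons are secreted proteins that warn cells of infection. RIG-I-like receptors in the cytosol recognize viral RNA, and cyclic GMP-AMP synthase (cGAS) recognizes DNA and signals through the adaptor STING. Both routes end in the production of type I interferon, which acts through its receptor on a complex that holds STAT2 and IRF9. This complex binds the interferon-stimulated response element (ISRE) in front of many genes whose products block viral entry, translation and replication, and whose basal level in uninfected tissue is kept low.

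The promoters of the genes are described first. Sequence was not used to choose the genes, but they were named as interferon-stimulated. A high share of interferon elements among them is therefore built into the choice and is not a result of these libraries. RefSeq windows (GRCm38.p6, the assembly of mm10) from 250 bases before to 50 bases after the start site were available for 24 members, in 28 windows. An ISRE core, searched as GAAANNGAAA on both strands, was found in 13 of the 24 genes (54.2%), compared with 3.99% of all 27025 genes with a window. The gamma-activated site, an element of the response to interferon gamma searched as TTCNNNGAA on both strands, was found in 7 of the 24 (29.2%), compared with 9.55% of all genes. By window these shares were 46.4% of 28 against 3.44% of 32851 for the ISRE core, and 25.0% against 8.30% for the gamma-activated site. Of members past the threshold in the genotype comparison described next, 7 had a window and 3 of these an ISRE core (Isg15, Ifitm3 and Irgm1). Of members that were not, 17 had a window and 10 an ISRE core. Matches are shown for those 3 genes and, for contrast, for 3 genes that did not pass (Ifit1, Ifit3 and Rsad2), 5′ to 3′ on the strand of the gene, with the match in capitals. In Ifit1, Ifit3 and Rsad2 the core lay on the opposite strand and is printed as its reverse complement, and a run of capitals longer than 10 bases holds overlapping matches.

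Isg15, chr4:156200865-156200906, minus strand, first base of the match 78 bases before the start site: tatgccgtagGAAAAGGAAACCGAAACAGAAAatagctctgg
Irgm1, chr11:48871425-48871460, minus strand, 30 bases before: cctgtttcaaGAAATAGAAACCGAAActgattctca
Ifitm3, chr7:141010706-141010735, minus strand, 20 bases after: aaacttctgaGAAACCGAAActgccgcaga
Ifitm3, chr7:141010723-141010752, minus strand, 3 bases after: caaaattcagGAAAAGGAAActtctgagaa
Ifit1, chr19:34640775-34640804, plus strand, 104 bases before: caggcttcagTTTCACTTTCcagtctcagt
Ifit1, chr19:34640794-34640823, plus strand, 85 bases before: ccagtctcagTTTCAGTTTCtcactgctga
Ifit3, chr19:34583363-34583392, plus strand, 156 bases before: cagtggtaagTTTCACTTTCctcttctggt
Ifit3, chr19:34583397-34583426, plus strand, 122 bases before: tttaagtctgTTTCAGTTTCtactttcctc
Rsad2, chr12:26456553-26456582, minus strand, 120 bases before: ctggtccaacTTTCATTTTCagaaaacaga

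The Isg15 window thus held 3 copies of the core and the windows of Irgm1, Ifitm3, Ifit1 and Ifit3 held 2 each. Distances are from the RefSeq start site, which can differ from the gene ends of the annotation used for positions below. For Irgm1 the stretch lies inside the gene as that annotation gives it. A match describes the letters in these windows and not the binding of a factor.

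In the comparison of genotypes, 12 of the 33 tested members were called higher in mutants (36.4%), at an adjusted p below 0.05 in edgeR's likelihood-ratio test with experimental group as a block. Of all 15438 genes tested, 1.28% were called higher. No member was called lower (unadjusted p under 0.05: 19 higher and 2 lower; no call with edgeR's quasi-likelihood test or DESeq2), against 4.3% of all genes. The median log2 fold change was 0.82 over the members and -0.01 over all genes, and 30 members had a positive and 3 a negative value. Both mutants lay above both controls for 19 members (57.6%, compared with 12.6% of all genes) and below both for 2 (6.06%, compared with 13.3%), while the other 12 overlapped. With 2 mice per genotype an exact two-sided permutation test of a single gene cannot give a p below 0.333, so the calls rest on the spread that edgeR shares across genes. In bulk RNA, more cells of a type and more RNA per cell cannot be told apart.

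Mutant 2 held the highest level of 28 of the 33 members (84.8%), whereas it was highest for 26.1% of all genes. Summed over the 34 members, the level was 546.5 and 629.1 CPM in the controls and 741.5 and 1076 in the mutants. The mutant sum was thus 1.36 times that of its control in experimental group 1 and 1.71 times in group 2. The median log2 ratio of mutant to control, taken with a prior count of 2 as are all log2 ratios here, was 0.50 in group 1 and 1.24 in group 2. The ratio was positive in both groups for 28 members (84.8%, compared with 29.8% of all genes), negative in both for Ifit2 and Cmpk2, and of opposite sign for Ifit1, Mx2 and Tmem173.

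**Figure D1:**
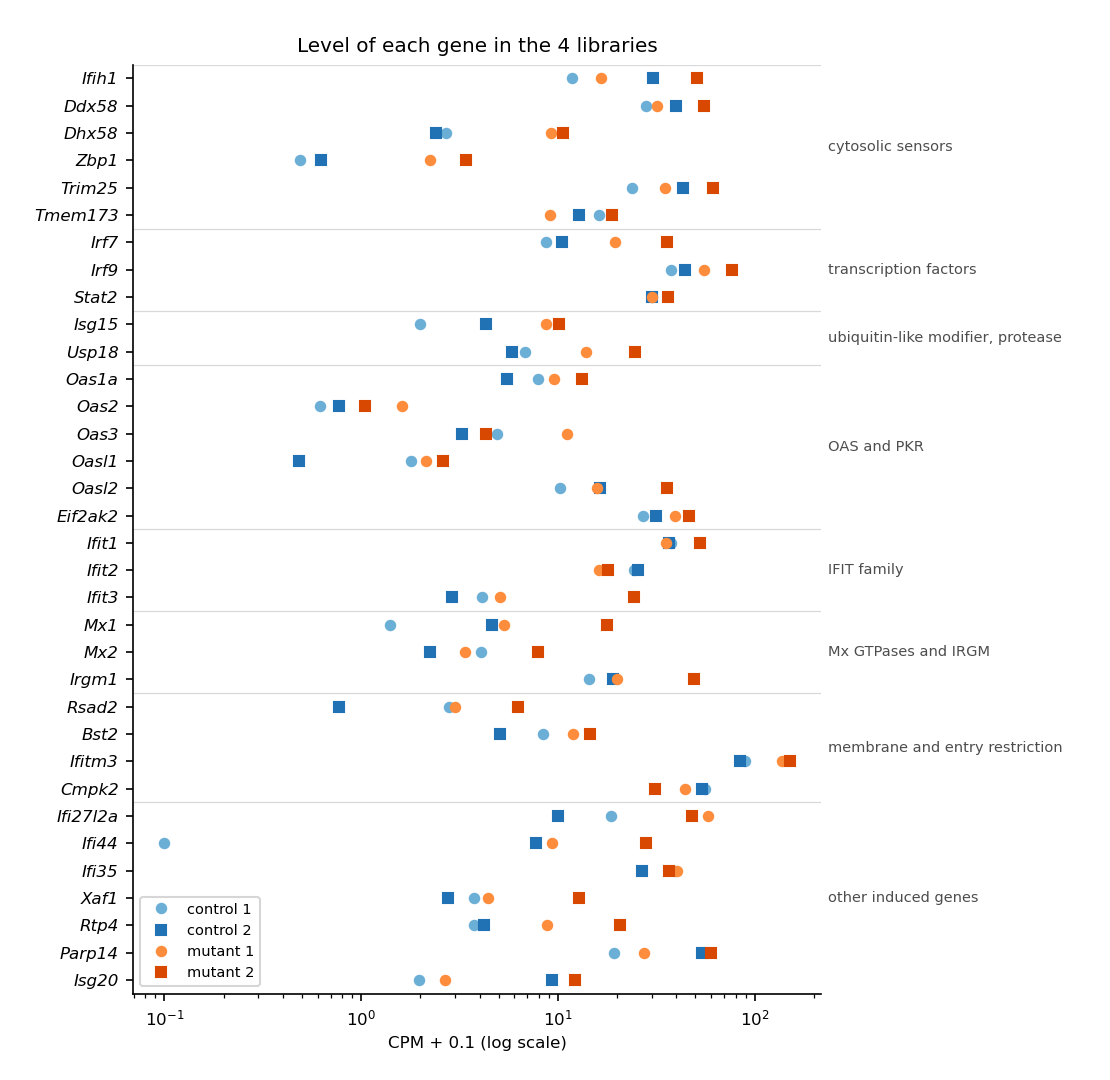
Level of each of the 34 members in the 4 libraries, as CPM plus 0.1 on a logarithmic axis, ordered by role; circles are experimental group 1, squares group 2, blue controls and orange mutants. Mutant 2 is the rightmost point for most genes, and Ifi44 in control 1, at 0 counts, lies at the left edge.

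The 34 members lie on 15 chromosomes, and the whole-gene position in mm10 is given for those called. Of the sensors, Dhx58 (chr11:100694884-100704271, LGP2, a RIG-I-like receptor that modulates the others) was the one called higher. It was present at 2.59 and 2.29 CPM in the controls and 9.11 and 10.5 in the mutants (log2 fold change 2.00, SE 0.52, adjusted p = 0.00583). Both mutants lay well above both controls, and the ratio of CPM was 3.51 in group 1 and 4.59 in group 2. Zbp1, a sensor of Z-form nucleic acid that can trigger cell death, had 9 and 11 counts in the controls and 49 and 49 in the mutants, and passed the filter through the mutants alone (adjusted p = 0.139). The more abundant RNA sensors and their ligase had smaller fold changes and did not pass. Ifih1 (MDA5, a receptor for long double-stranded RNA) was at 11.7 and 30.3 CPM in the controls and 16.5 and 51.0 in the mutants (log2 fold change 0.62, adjusted p = 0.106). Its controls and mutants overlapped, and control 2 lay above mutant 1. Ddx58 (RIG-I, a receptor for RNA with a 5′ triphosphate) was at 28.01 and 39.7 CPM in controls against 31.8 and 55.2 in mutants (log2 fold change 0.33, adjusted p = 0.428). Trim25, a ubiquitin ligase that acts on RIG-I, was at 23.7 and 43.2 CPM in controls against 34.8 and 61.0 in mutants (log2 fold change 0.53, adjusted p = 0.0737). For Ifih1, Ddx58 and Trim25 both libraries of experimental group 2 lay above both of group 1.

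Of the cGAS and STING route of DNA sensing, the cGAS row was low and Tmem173 had no common direction in the groups. Outside this route Zbp1 is described above, and DNA sensors that are not members are not described singly here. Tmem173 (STING) was at 16.2 and 12.8 CPM in the controls and 9.06 and 18.8 in the mutants, with a log2 ratio of -0.83 in group 1 and 0.56 in group 2 (adjusted p = 0.944). The listed symbol of cGAS, Mb21d1, was not among the file symbols. RefSeq gives E330016A19Rik as an older symbol of the same gene, and its row, which was not counted as a member, held 0 and 9 counts in the controls and 50 and 18 in the mutants (adjusted p = 0.236).

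Of the 3 transcription factors of the response, Irf7 and Irf9 were called higher. Irf7 (chr7:141262706-141266481), the transcription factor that amplifies interferon production, was measured at 8.64 and 10.4 CPM in the controls and 19.4 and 35.8 in the mutants (log2 fold change 1.48, SE 0.30, adjusted p = 0.00014). Irf9 (chr14:55603571-55610030), the DNA-binding subunit of the complex that recognizes the ISRE, was at 37.6 and 43.9 CPM in controls against 55.5 and 76.4 in mutants (log2 fold change 0.68, SE 0.17, adjusted p = 0.00385). In either gene both mutants exceeded both controls. Stat2, a partner of Irf9 in that complex, was at 29.8 and 30.01 CPM in controls against 29.9 and 36.1 in mutants, which is close to equal in 3 of the libraries (log2 fold change 0.13, SE 0.21, adjusted p = 0.864).

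The ubiquitin-like modifier Isg15 and Usp18, the protease that removes it and that also dampens the interferon receptor, were both called higher. Isg15 (chr4:156199424-156200818), whose promoter held the 3 overlapping ISRE cores shown above, was at 1.90 and 4.19 CPM in the controls and 8.59 and 10.03 in the mutants (log2 fold change 1.71, SE 0.53, adjusted p = 0.033). The quasi-likelihood test of edgeR did not call it (adjusted p = 0.0843), and neither did the fit with counts thinned to the smallest library (adjusted p = 0.0645). Usp18 (chr6:121245906-121270917) was at 6.74 and 5.72 CPM in controls against 13.7 and 24.7 in mutants (log2 fold change 1.57, SE 0.38, adjusted p = 0.00331), so that mutant 1 had 2.04 and mutant 2 had 4.32 times the level of its control.

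The 2′-5′ oligoadenylate synthetases activate RNase L on double-stranded RNA, and PKR (Eif2ak2) stops translation on it. Oasl2 (chr5:114896936-114912234), a member of the oligoadenylate synthetase family, was called higher. It stood at 10.1 and 16.3 CPM in the controls and 15.8 and 35.6 in the mutants (log2 fold change 0.89, SE 0.29, adjusted p = 0.0423). It was the only called member whose genotypes overlapped, with mutant 1 just below control 2, and the call was lost with the quasi-likelihood test (adjusted p = 0.101), DESeq2 (adjusted p = 0.104) and no filter on low counts (adjusted p = 0.0681). Eif2ak2 was at 26.8 and 31.5 CPM in controls against 39.4 and 46.2 in mutants, with both mutants above both controls and nearly equal ratios of 1.47 and 1.46 in the groups (log2 fold change 0.55, SE 0.19, adjusted p = 0.0737). Oas1a, whose near-identical neighbours make its count uncertain, was at 7.78 and 5.43 CPM in controls against 9.50 and 13.1 in mutants (log2 fold change 0.78, adjusted p = 0.419). The remaining family members were scarce. Oas3 had between 62 and 255 counts and Oasl1 between 8 and 47, and neither passed (adjusted p = 0.502 and 0.588). Oas2, at 12 and 14 counts in controls against 35 and 14 in mutants, was too low to be tested.

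No member of the IFIT family, which binds foreign RNA at its cap or 5′ end, passed the threshold. The promoters of Ifit1 and Ifit3 hold the ISRE cores shown above. Ifit1 was at 37.4 and 36.8 CPM in the controls and 35.4 and 52.9 in the mutants (log2 fold change 0.22, adjusted p = 0.70). Ifit2 was at 24.3 and 25.3 CPM in controls against 16.0 and 17.96 in mutants, with both mutants below both controls (log2 fold change -0.55, SE 0.27, adjusted p = 0.282). Ifit3 was at 4.02 and 2.81 CPM in controls against 4.99 and 24.3 in mutants (log2 fold change 1.71, SE 0.58, adjusted p = 0.105), and mutant 2 alone stood clear of the other libraries. The 3 genes lie next to each other on chromosome 19 between 34550694 and 34650009 (mm10), and the reads of close paralogs in this cluster are partly set aside by counting that requires a unique alignment.

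Among the dynamin-like Mx GTPases, which trap viral nucleoproteins, and the related immunity-related GTPase Irgm1, 2 of 3 were called higher. Mx1 (chr16:97447035-97462907) was at 1.30 and 4.52 CPM in the controls and 5.25 and 17.7 in the mutants (log2 fold change 1.99, SE 0.48, adjusted p = 0.00257). Its ratio of CPM was nearly the same in the groups, 4.05 and 3.91, while mutant 1 barely exceeded control 2. Irgm1 (chr11:48861968-48871683), which regulates autophagy of intracellular microbes, was at 14.3 and 18.96 CPM in controls against 19.9 and 48.8 in mutants (log2 fold change 0.93, SE 0.28, adjusted p = 0.0228), a call lost with the quasi-likelihood test (adjusted p = 0.0839) and DESeq2 (adjusted p = 0.0619). Mx2, 72401 bases from Mx1 on chromosome 16, was at 3.98 and 2.14 CPM in controls against 3.25 and 7.79 in mutants, with a log2 ratio of -0.28 in group 1 and 1.82 in group 2 (adjusted p = 0.686).

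Ifitm3 (chr7:141009586-141010770), which blocks the fusion of viruses in endosomes, was the most abundant member, both in CPM and per kilobase of exon (170.4 CPM per kb on average over the libraries, against a median of 4.66 over the members). It was present at 89.1 and 84.2 CPM in the controls and 137 and 151 in the mutants (log2 fold change 0.74, SE 0.18, adjusted p = 0.00196). The mutants were close to each other and so were the controls. Bst2 (tetherin, which holds budding virions at the membrane) was at 8.30 and 4.95 CPM in controls against 11.8 and 14.4 in mutants (log2 fold change 1.02, SE 0.43, adjusted p = 0.178). Rsad2 (viperin, which makes a chain-terminating nucleotide) had 62 and 14 counts in controls against 67 and 91 in mutants (adjusted p = 0.392). Cmpk2, a mitochondrial nucleotide kinase whose gene lies 12752 bases from Rsad2 on chromosome 12, was at 56.0 and 54.0 CPM in controls against 44.4 and 31.1 in mutants. Both mutants lay below both controls, and the gene just missed the threshold (log2 fold change -0.56, SE 0.19, adjusted p = 0.0516). It was called lower with counts thinned to the smallest library (adjusted p = 0.0346).

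Of the other induced genes, Ifi27l2a (chr12:103442167-103443680), which encodes a small hydrophobic protein and has a close paralog that makes its count less certain, had the smallest adjusted p of the members. It was at 18.5 and 9.95 CPM in the controls and 58.0 and 47.9 in the mutants (log2 fold change 1.95, SE 0.23, adjusted p = 1.85e-13). It was the only called member with its highest level in mutant 1, and both mutants were far above both controls. Ifi44 (chr3:151730922-151749960), an interferon-induced protein with antiviral activity, had 0 and 160 counts in the controls and 213 and 411 in the mutants (log2 fold change 4.10, SE 0.77, adjusted p = 0.00135). Its fold change depends on the absence of reads in control 1. Against 3 counts in that library, mutant 1 was at least 71.1-fold higher, whereas mutant 2 was 3.65-fold above control 2. The call was lost with the quasi-likelihood test (adjusted p = 0.0863), and the median of the members was 0.80 without this gene. Rtp4 (chr16:23520291-23614222), a chaperone of receptor proteins that interferon induces, was at 3.63 and 4.10 CPM in controls against 8.67 and 20.6 in mutants (log2 fold change 1.79, SE 0.45, adjusted p = 0.00445). Parp14, an ADP-ribosyltransferase, was at 19.3 and 53.9 CPM in controls against 27.3 and 60.2 in mutants (adjusted p = 0.428). Isg20, an RNA exonuclease, was at 1.86 and 9.19 CPM in controls against 2.56 and 12.1 in mutants (adjusted p = 0.788). For Parp14 and Isg20 the libraries separated by experimental group and not by genotype. Ifi35 was at 39.2 and 26.8 CPM in controls against 40.2 and 36.5 in mutants (adjusted p = 0.671), and Xaf1, a promoter of apoptosis, had 84 and 56 counts in controls against 99 and 188 in mutants (adjusted p = 0.302).

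**Figure D2:**
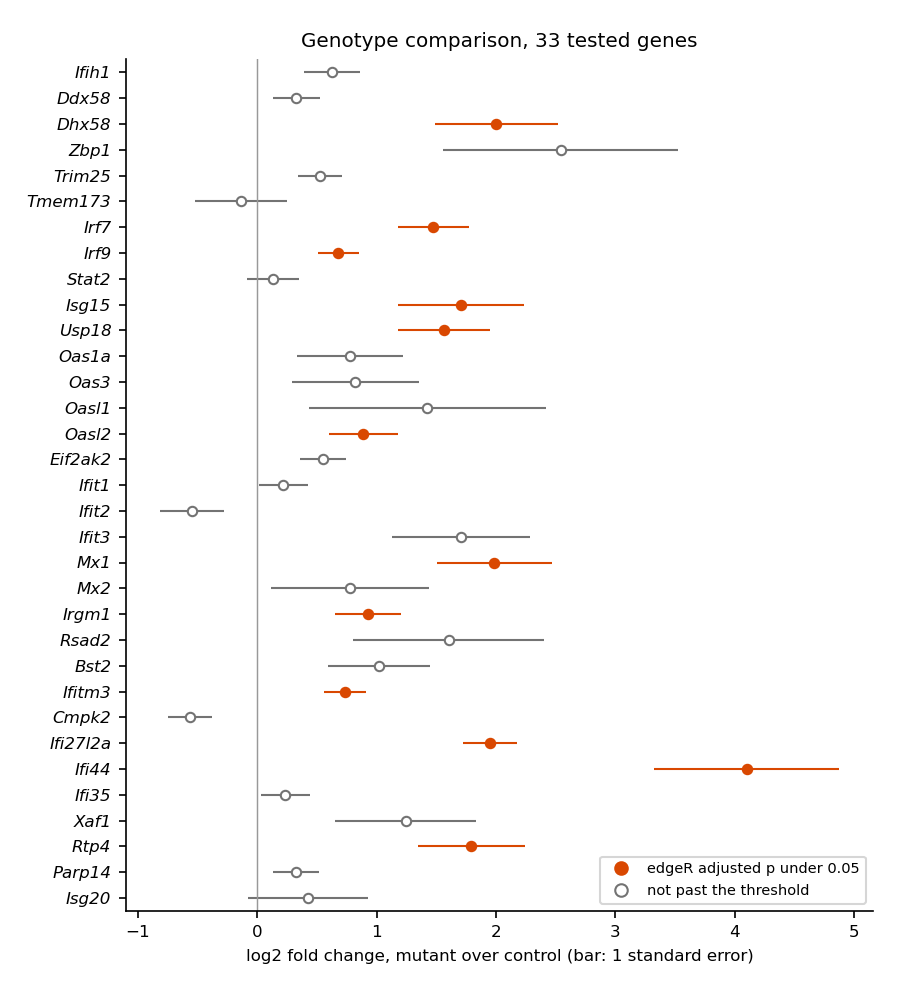
Log2 fold change of mutants over controls for the 33 tested members, ordered by role, with 1 standard error from the edgeR fit with experimental group as a block; filled points have an adjusted p below 0.05. The 12 filled points run from 0.68 for Irf9 to 4.10 for Ifi44, and 3 genes lie left of 0.

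The calls depended on matching each mutant to the control of its group. With genotype alone in the model 0 members passed (unadjusted p under 0.05: 9, all higher), and of all tested genes 6 were called higher and 0 lower. The quasi-likelihood test called 8 of the 12, and DESeq2 called 4, gave 2 an adjusted p above the threshold and gave the other 6 none.

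The members also varied between the libraries of a genotype. The groups differed in library make-up too. Alignments that were not unique made up 68.26% in control 1 and 62.65% in mutant 1, against 26.32% in control 2 and 25.9% in mutant 2. The part of this difference in the group comparison was not tested. In the comparison of experimental group 2 with group 1, 9 members were called higher (27.3%, compared with 17.7% of all genes) and 1 lower (3.03%, compared with 14.0%). The RNA receptors Ifih1 (log2 fold change 1.502, adjusted p = 1.16e-08) and Ddx58 (0.65, adjusted p = 0.00457) and the ligase Trim25 (0.84, adjusted p = 8.16e-05) were higher in group 2. So were Isg20 (2.27, adjusted p = 0.000125) and Parp14 (1.31, adjusted p = 9.50e-10), none of these 5 being called by genotype. A further 4 genes were called higher in group 2 as well as in mutants, namely Ifi44 (3.82, adjusted p = 0.000565), Mx1 (1.77, adjusted p = 0.00183), Oasl2 (0.94, adjusted p = 0.00636) and Irgm1 (0.86, adjusted p = 0.0101). Ifi27l2a was lower in group 2 (-0.57, SE 0.23, adjusted p = 0.04), a call lost with the quasi-likelihood test. Both contrasts use the same 4 libraries.

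Genes around the listed members in the pathway were examined from lists that were also chosen with earlier results known. Transcripts of the interferons themselves were close to absent. None of 21 type I, II and III interferon genes was tested, none exceeded 14 counts in a library, and their summed counts were 0 and 12 in the controls, from 0 and 3 genes, and 53 and 7 in the mutants, from 11 and 2 genes. Mutant 1 held a background with a median of 1.81 counts per kb over 3753 genes at 0 in the other libraries. The part of this background in its 53 counts was not tested. The best-known member of the family, Ifnb1, had 0 counts in every library. Of the receptors and their proximal signalling, the receptor subunit Ifnar1 and the kinase Jak1 were not called, with log2 fold changes of 0.11 (adjusted p = 0.891) and -0.25 (adjusted p = 0.633). Among 20 tested genes that carry the signal from sensors to interferon, 1 was called lower, the adaptor Traf3 at 69.5 and 78.2 CPM in controls against 49.9 and 52.2 in mutants (log2 fold change -0.53, SE 0.17, adjusted p = 0.0315), which neither the quasi-likelihood test nor DESeq2 called. The transcription factors Irf3 and Irf1 of that list had log2 fold changes of 0.01 and 0.32, with adjusted p = 0.991 and 0.433. Of 10 nucleases and other brakes on self nucleic acid, 0 were called by edgeR's likelihood-ratio test, its quasi-likelihood test or DESeq2, and 0 had an unadjusted p under 0.05. Adar, the editor of self RNA, was at 63.7 and 66.3 CPM in controls against 65.0 and 76.3 in mutants.

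Of 59 other tested interferon-induced genes, 15 were called higher and 0 lower, against 1.28% and 4.3% of all genes. Their median log2 fold change was 0.76, and there were 34 genes whose mutants both exceeded both controls, against 12.6% of all genes. The antimicrobial GTPases Iigp1 (log2 fold change 2.94, SE 0.64, adjusted p = 0.00203) and Gbp3 (2.22, SE 0.52, adjusted p = 0.00185) were the called GTPases with the greatest change. Iigp1 was at 1.73 and 0.762 CPM in the controls and 5.51 and 15.2 in the mutants. Samd9l, an inhibitor of translation, was at 12.3 and 36.4 CPM in controls against 27.3 and 64.5 in mutants (0.98, SE 0.21, adjusted p = 0.000239). The most abundant gene of this list, Ly6e, at 97.2 and 305 CPM in controls against 154 and 405 in mutants, did not pass (adjusted p = 0.154). Of 15 tested genes of MHC class I antigen presentation, 4 were called higher, against 1.28% of all genes, and all 15 had a positive value (median 0.84), against 48.9% of all genes. H2-K1, a class I heavy chain, was at 215 and 182 CPM in controls against 377 and 511 in mutants (1.15, SE 0.25, adjusted p = 0.000675), and B2m, the class I light chain, at 71.7 and 101 CPM in controls against 102 and 243 in mutants (0.89, SE 0.22, adjusted p = 0.00262). H2-Q4 (1.07, adjusted p = 0.000383) and the peptide transporter Tap1 (0.84, adjusted p = 0.0113) were also called.

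**Figure D3:**
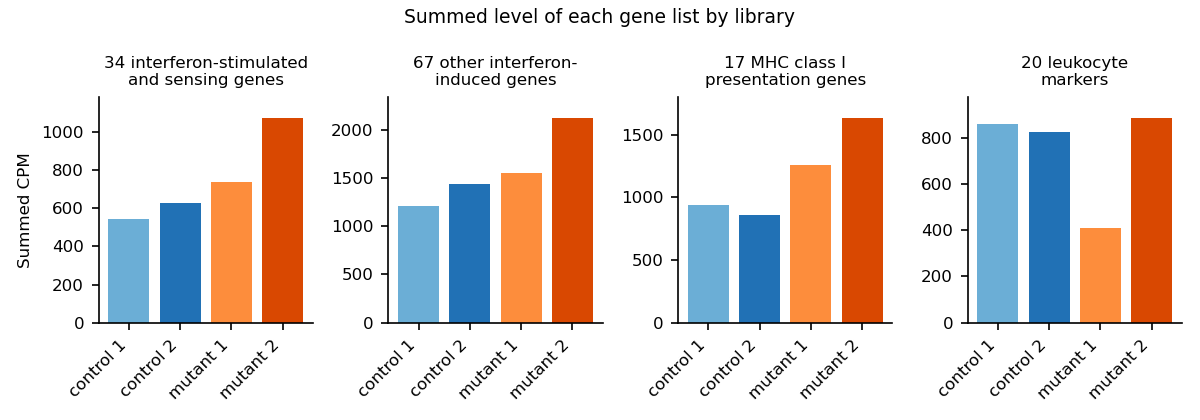
Summed CPM of 4 gene lists in each library, as bars from 0: the 34 members, 67 other interferon-induced genes, 17 genes of MHC class I presentation and 20 leukocyte markers, counting those present in the files. In the first 3 panels mutant 2 is highest and mutant 1 next, whereas the leukocyte sum is lowest in mutant 1, at 409.5 CPM.

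Leukocytes and stromal cells express many of these genes, and their markers were read in the same libraries. Of 20 leukocyte markers 18 were tested and 0 were called by genotype with edgeR's likelihood-ratio test, its quasi-likelihood test or DESeq2 (0 with an unadjusted p under 0.05). Their summed level was 858.2 and 822.5 CPM in the controls and 409.5 and 885.7 in the mutants. Without Lyz2, which made up most of the sum in control 2, it was 634.7 and 129.3 CPM in controls against 255.1 and 301.9 in mutants. The markers were highest in control 1 for 17 of 18, and their median log2 ratio of mutant to control was -1.73 in group 1 and 1.27 in group 2. Thus in group 1 the mutant held less leukocyte signal than its control while 28 of 33 members had a positive ratio, and in group 2, where the ratio was the larger one for 25 members, it held more. The T cell marker Cd3e was at 0 counts in control 2 and mutant 2, and the B cell marker Cd79a in every library except mutant 1, whereas the general leukocyte marker Ptprc was detected in every library, with 117 to 421 counts. The 12 endothelial and stromal markers summed to 1035 and 316.5 CPM in controls against 676.1 and 525.0 in mutants, and 2 of them, Col1a1 and Col1a2, were called lower. Without Dcn, which DESeq2 alone called higher (adjusted p = 0.00938), the sums were 869.7 and 126.6 CPM in controls against 481.7 and 112.4 in mutants. These sums were lower in the mutant of either group, but most single markers were not in group 2. Of the 12, 2 had a positive log2 ratio of mutant to control in group 1 and 8 in group 2 (medians -0.63 and 0.31). The part of other cells in the differences between genotypes was not tested.

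**Figure D4:**
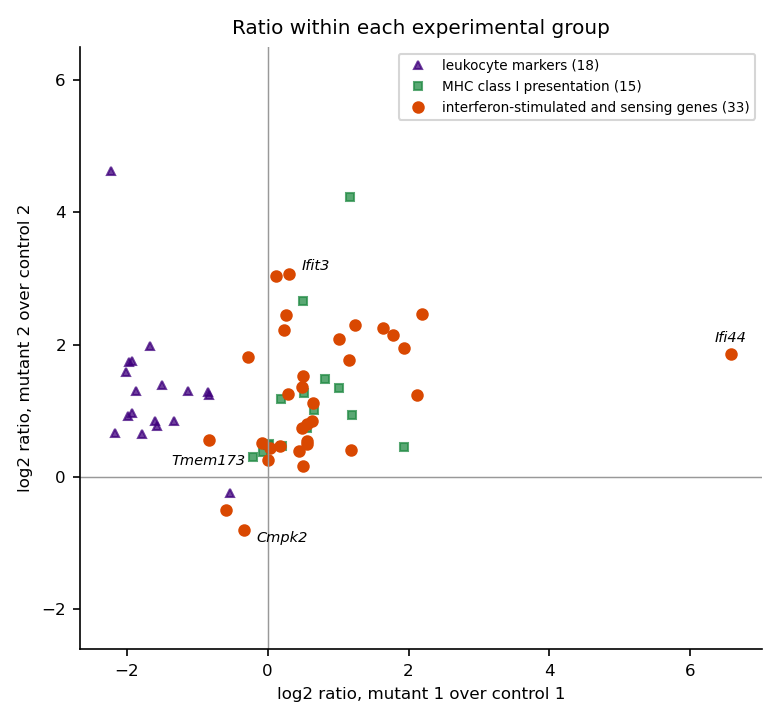
Log2 ratio of mutant to control in experimental group 1 (horizontal) and group 2 (vertical) for the 33 tested members, 18 leukocyte markers and 15 genes of MHC class I presentation; each point is a gene, from 1 mutant and 1 control per group. The members lie mostly in the upper right, with 28 positive in both groups, while 17 of the leukocyte markers are negative in group 1 and positive in group 2.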

How the data were processed

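Transcripts of Tomato-positive cells from 2 control and 2 mutant mice were sequenced. The deposited values were raw counts of reads per gene symbol, which the authors made with HTSeq from single-end reads aligned to mm10 with TopHat2 2.0.7, after ribosomal reads had been removed with Bowtie2 2.0.6, per the submitters' processing notes. Whether strand was used in counting was not given in the sources used here, so overlapping antisense genes cannot be told apart. Library sizes and tests excluded the 5 tally lines. The members and the other lists were chosen with earlier results of these data known. Positions came from the GENCODE annotation of mm10.

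Genes with over 1 CPM in at least 2 libraries (15438) were tested in edgeR 4.0.16 (R 4.3.3) with TMM factors, tagwise dispersions and the likelihood-ratio test on genotype plus experimental group, the design of the study's methods. Adjustment was by Benjamini-Hochberg over all tested genes, with a threshold of 0.05. CPM values were scaled by the TMM factors. Log2 ratios within a group used a prior count of 2 and carry no test. The groups pair littermates handled together per the study's methods, and same-numbered libraries deviated together (r = 0.522 across genes, which are not independent). Values in every library were given for members called in either contrast and for the 3 most abundant of each role, and from other lists for genes called by genotype and the 3 most abundant. The alternatives were the quasi-likelihood test, DESeq2 1.42.0, other scaling and filters, thinning to 14833396 counts, a background of 1.81 counts per kb subtracted from mutant 1 (estimated from 3753 genes at 0 in the other libraries), no block, and each library or group left out. The tests were tried on simulated counts. Floors of 3 counts cover counting error only. Some results are not reported here.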

Additional observations from a re-analysis of the deposited data

Results flagged for a closer look

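Differences of direction between the experimental groups were noted, none of which was tested, since each group held 1 mutant and 1 control. The log2 ratio of mutant to control was negative in group 1 and positive in group 2 for Ifit1, Mx2 and Tmem173, with differences (group 2 minus group 1) of 0.60, 2.10 and 1.39. The median ratio of a list likewise changed sign for the interferon receptors and proximal signalling genes, with a difference of 0.20, and for the genes that carry the signal from the sensors, with a difference of 0.73. It did so too for the leukocyte markers, with a difference of 2.997, and for the endothelial and stromal markers, with a difference of 0.94. Reads outside genes, which enter no comparison, made up 39.41% of the uniquely aligned reads of mutant 1, against 23.76% and 24.88% in the controls.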

How the results depend on the processing

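Without the replicate block, 0 members were called higher by genotype, against 12 with it. DESeq2 called 4 of them, and 17 members had no adjusted p there. Leaving out each library in turn, with genotype alone in the model, left 0 to 1 called higher (Ifi27l2a without control 1, and Ifi44 without control 2), with medians from 0.48 to 1.19. The quasi-likelihood test, RLE factors, both filters, thinning and background subtraction called 8 to 12, and thinning called 1 member lower. In the comparison of experimental groups, the 1 member called lower was lost (0) with the quasi-likelihood test, DESeq2, no filter and thinning. Leaving out a library gave 0 to 11 members called higher and 0 to 1 lower, where the lowest number came without control 1 and the highest without control 2, and the median ranged from -0.21 without mutant 2 to 0.94 without control 2. The cause was not tested. No call of the 12 turned its direction under these alternatives. The depth of 14833396 counts in mutant 2 limits genes such as Oas2, at 14 counts there.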

Other observations

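Besides those named in the report, 12 other interferon-induced genes were called higher in mutants. They included the guanylate-binding protein Gbp2 (log2 fold change 1.35, adjusted p = 0.017), the GTPase Irgm2 (1.59, adjusted p = 0.032) and the nuclear body protein Sp110 (2.26, adjusted p = 0.0493). Slfn9 (1.77, adjusted p = 0.00278) and D14Ertd668e (2.28, adjusted p = 0.00342) changed by similar amounts. Uba7, the enzyme that activates Isg15 for conjugation, was at 17.2 and 14.7 CPM in the controls and 31.8 and 24.7 in the mutants (0.82, adjusted p = 0.032). The galectin Lgals9 (1.30, adjusted p = 0.00346), the ADP-ribosyltransferase Parp10 (0.99, adjusted p = 0.0187) and the surface protein Ly6a (0.87, adjusted p = 0.00839) followed, while Ifi27l1 (0.64, adjusted p = 0.00944), Ifitm1 (0.59, adjusted p = 0.0251) and Lgals3bp (0.59, adjusted p = 0.0151) had the smallest called changes. The quasi-likelihood test called 8 of this list and DESeq2 5.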
